A study of Mus musculus with 23 samples.

Results

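Translation initiation and elongation factors are the soluble proteins that load ribosomes onto messenger RNA and move them along it. Their transcripts were described in the mouse proximal small intestine by feeding state, doxorubicin, time and Ddit4 genotype. Members were all rows of the table whose symbol starts with Eif1 to Eif6 or with Eef1 or Eef2. The 4E-binding proteins, the eIF2 kinases, Eef2k and the sex chromosome pair Eif2s3x and Eif2s3y were left out. Of 60 matching rows, 57 had a mean normalised read count of at least 10 over the 23 libraries, out of 11939 genes at that level and 16259 in the table. The 3 rows below the minimum were Eef1a2 with a mean of 2.67, Eif4a3l1 with 2.07 and Eef1akmt3 with 1.48. The lowest members inside it were Eef1akmt4 with 13.97 and Eif2b3 with 20.18.

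The study fed male mice ad libitum or fasted them for 24 h, and gave doxorubicin, a DNA-damaging anthracycline, at 20 mg/kg into the peritoneum. Wild-type mice gave 12 libraries. The other 11 came from Ddit4-/- mice, which lack a stress-induced brake on the growth kinase mTORC1. Whole tissue was taken, so an epithelial change cannot be separated from a change in other layers. Untreated tissue came from ad libitum fed mice, fasted mice and mice refed for 2 or 6 h after the fast. Drug-treated tissue was taken at 2, 6, 12 and 24 h, from mice fed ad libitum (7 libraries) or fasted beforehand and then refed (8 libraries, called prefasted below). The labels give these the same hours for refeeding and for the drug, but do not say that both began together, so their match to untreated refed mice rests on those labels. Each genotype gave 1 library in each of 12 states, and the knockout had none for ad libitum feeding at 2 h of doxorubicin. The labels give no mouse strain, age or knockout allele design, and do not say how many animals a library holds. In the fit of state and genotype, the wild-type and the knockout library of a state stand in for replicates, so n = 2 means 1 of each. Its p-values rest on how unevenly the genotypes differ from state to state. That spread may mix genotype, animal and technical differences, which cannot be told apart here.

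Counted in units of 1e6, libraries held 11.42 to 23.43 reads in genes, with a median of 15.52. The knocked-out gene Ddit4 had 66.85 to 414.5 normalised reads in wild-type libraries and 0 to 11.28 in knockout libraries. The enterocyte markers were present in every library, with summed levels of 914100 to 1788000. The untreated knockout libraries for ad libitum feeding, fasting and 2 h of refeeding (called Y-poor below) held 0 to 5 reads from 4 Y-linked genes, although all mice are labelled male, against 1088 to 2030 in the other 20 libraries. Pancreatic acinar markers summed to 211800 in the wild-type library refed for 6 h and to 79240 in the fasted knockout library, against 126.1 to 3577 elsewhere. The titles of 4 prefasted wild-type libraries call them untreated; they were placed by their drug treatment label, which is doxorubicin.

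Initiation begins when the small ribosomal subunit, held by eIF1, eIF1A, eIF3 and eIF5, takes up the initiator transfer RNA on eIF2. The cap-binding eIF4 factors bring in the messenger RNA, the complex scans to the start codon, and eIF2B recharges eIF2 with GTP afterwards. In elongation eEF1A delivers each charged transfer RNA, the eEF1B subunits recharge eEF1A, and eEF2 moves the ribosome along. The intestinal lining renews itself within days and makes much protein in its crypts and villi, and many of the transcripts for these factors carry a 5′ terminal oligopyrimidine tract that ties their translation to mTORC1.

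The members differed widely in level, and elongation factors stood highest. Levels between genes were compared as normalised reads per kilobase of exonic sequence, for the 55 members found by symbol in GENCODE M21 (mouse build GRCm38). Exonic sequence was merged over all annotated transcripts of a gene. It can be longer than any single messenger RNA, which would understate the level per kilobase to a different degree between genes. Eef1a1, which encodes the carrier of charged transfer RNA, had 12990 per kilobase and Eef2 had 7906. They were followed by Eif6, whose protein keeps the large ribosomal subunit free, with 2929, Eif1, which guards start codon choice, with 2558, and Eif5a, whose product relieves stalled ribosomes, with 1693. The scaffold genes Eif4g2 and Eif4g1 had 1070 and 788.3 per kilobase, the helicase genes Eif4a2 and Eif4a1 had 888.8 and 196.7, and the cap-binding gene Eif4e had 142.1. The catalytic eIF2B subunit gene Eif2b5 had 247.8, and the eIF2 subunit genes Eif2s2 and Eif2s1 had 92.94 and 91.39. Among eIF3 genes the range ran from 53.27 for Eif3j1 to 891.1 for Eif3h.

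Across the 23 libraries the SD of a member's log2 level ran from 0.14 for Eif4e2 to 1.25 for Eef1akmt4, with a median of 0.33, against a median of 0.41 over all genes tested. Eif4e2, which encodes a cap-binding repressor, lay between 768.1 and 1200 normalised reads. Eef1akmt4, which encodes a methyltransferase of eEF1A, lay between 0 and 38.84, so its SD is taken at a few reads a library. The SDs of the scaffold gene Eif4g1 and the helicase cofactor gene Eif4h were also low, at 0.17 and 0.15. Among more abundant members, Eef1b2, which encodes a nucleotide exchange subunit of eEF1B, had an SD of 0.53 and lay between 1132 and 5252. The summed share of all normalised reads held by the 57 members was highest in the libraries refed for 2 h, at 1.2% in the wild type and 1.12% in the knockout. It was lowest 12 h after doxorubicin in knockout mice, at 0.566% with ad libitum feeding and 0.598% after a prefast. The elongation factor genes alone held 0.623% and 0.554% in those refed libraries, and 0.214% and 0.208% in those 12 h libraries.

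**Figure D1:**
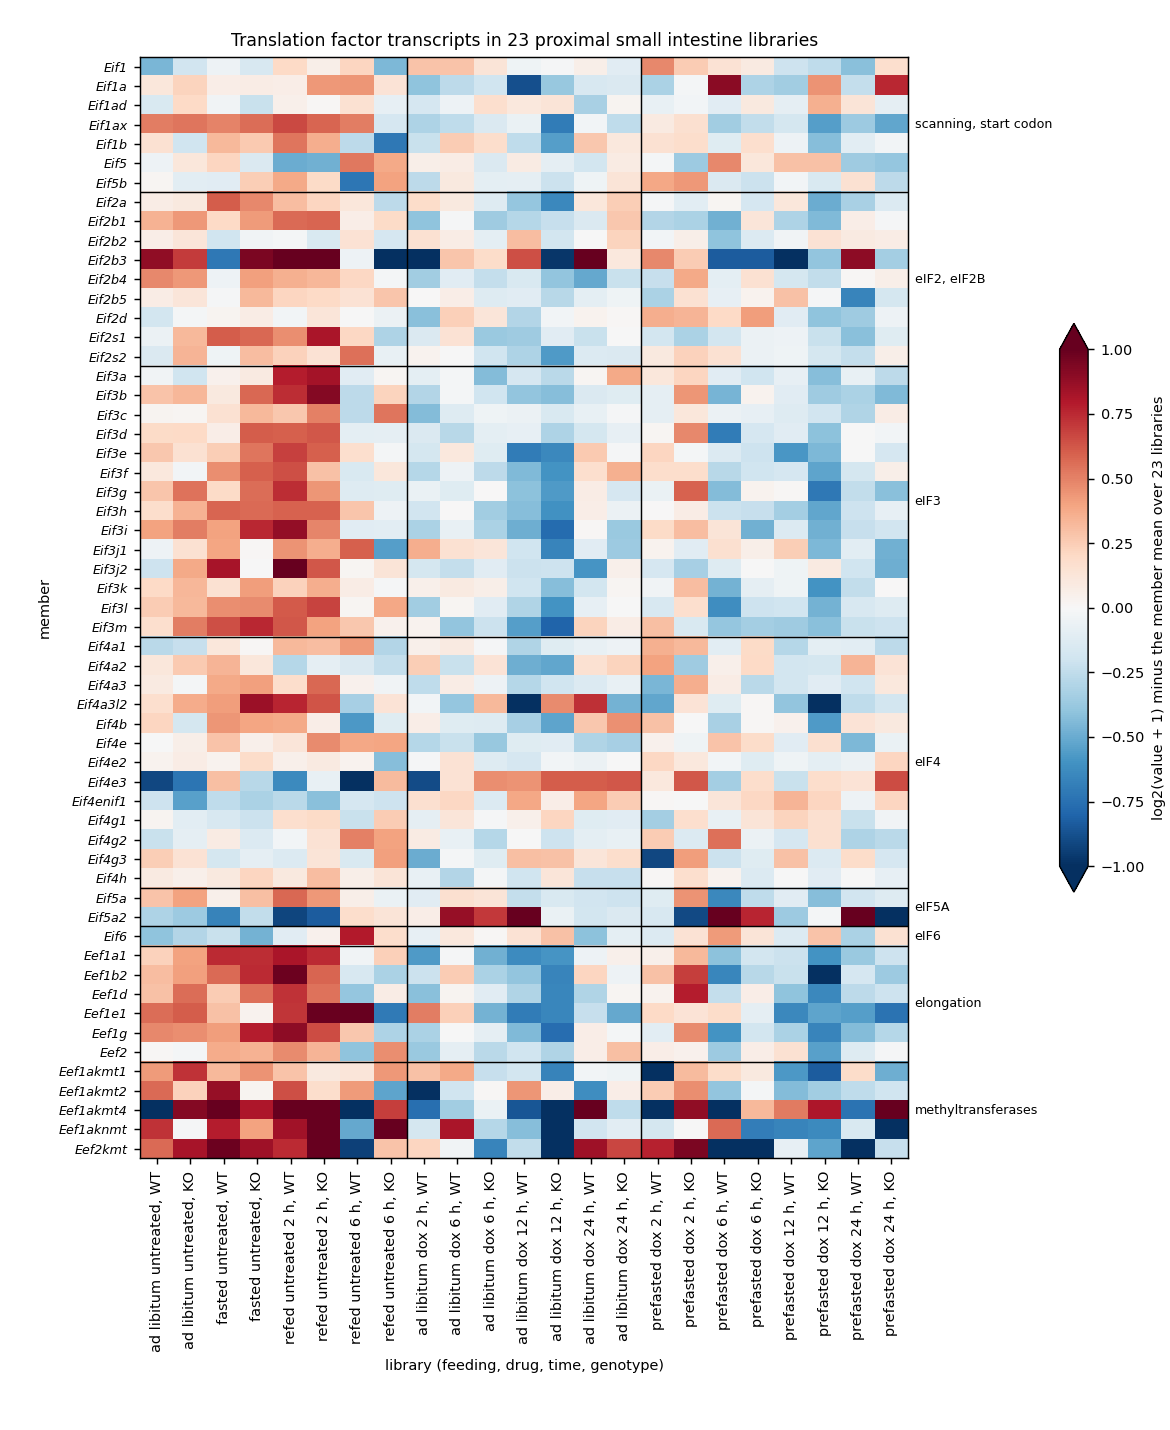
Deviation of log2(normalised read count + 1) from each member's mean (colour, clipped at 1 in either direction) for 57 members (rows, grouped by role) in 23 libraries (columns, 1 mouse intestine library each, WT wild type and KO Ddit4 knockout). The eIF3 and elongation rows are red in the libraries refed for 2 h and blue 12 h after doxorubicin with ad libitum feeding, while Eif4e3 and Eif4enif1 run the other way.

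Stretches upstream of the annotated start are shown for 4 members that fell at 12 h of doxorubicin (below) and for 3 that were not called there, chosen after the calls were seen to show a pair of motifs. RefSeq promoters (GRCm38.p6, 250 bases before to 50 after the start) were found for 44 of the 57 members and for 9579 genes tested. CCGGAAG, which holds the GGAA core bound by ETS factors, was in 15 of 44 members (34.1%) and in 20.2% of all those genes. It was in 6 of the 9 members with a promoter entry that fell at 12 h, namely Eef1b2, Eif1ax, Eif2b4, Eif3g, Eif3l and Eif3m. CACGTG, the E-box bound by MYC and its relatives, was in 13 of 44 members (29.5%), in 11.6% of all those genes and in 0 of those 9. The division is not clean: 9 of the 15 members with CCGGAAG did not fall, among them Eif4enif1, which rose, and Eif1b, Eif5a and Eif5a2 hold both motifs. Both strands were read, and the motifs were picked after the sequences and the calls had been seen, so these are descriptions of letters and not of binding. Capitals mark the motif, CCGGAAG or its reverse complement CTTCCGG in the Eif3 and Eif1ax stretches and CACGTG in the others, and each runs 5′ to 3′ on the gene's strand.
Eif3m (chr2:105017049-105017109, minus strand): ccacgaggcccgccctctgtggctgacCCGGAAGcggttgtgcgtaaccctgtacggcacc
Eif3g (chr9:20898601-20898661, minus strand): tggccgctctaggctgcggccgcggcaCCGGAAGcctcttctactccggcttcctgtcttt
Eif3l (chr15:79075161-79075221, plus strand): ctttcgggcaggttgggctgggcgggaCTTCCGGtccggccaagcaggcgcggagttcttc
Eif1ax (chrX:159371939-159371999, plus strand): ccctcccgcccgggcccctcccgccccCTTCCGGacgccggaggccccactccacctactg
Eef2 (chr10:81176561-81176620, plus strand): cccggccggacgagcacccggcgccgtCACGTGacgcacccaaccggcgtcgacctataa
Eif4e (chr3:138527177-138527236, plus strand): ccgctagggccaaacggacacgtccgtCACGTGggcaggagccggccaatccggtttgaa
Eif4g1 (chr16:20672646-20672705, plus strand): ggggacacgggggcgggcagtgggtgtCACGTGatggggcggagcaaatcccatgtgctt
The motif ended 48, 37, 28 and 205 bases before the start in Eif3m, Eif3g, Eif3l and Eif1ax, and 37, 58 and 48 bases before it in Eef2, Eif4e and Eif4g1. Of the other motifs searched, the shorter CCGGAA, which is part of CCGGAAG, was in 31.3% of all promoters and in 21 of 44 members. The TATA box TATAAA was in 9.34% and 4 members, and the pyrimidine-rich CTTTCC in 30.4% and 11 members. TGATGCAA was in 0.825% and 0 members, GCGCATGCGC in 2.28% and 1 member, and TCTCGCGAGA in 1.19% and 0 members. Of the 9 members with a promoter entry that fell at 12 h, 7 held CCGGAA, 4 CTTTCC, 1 TATAAA and 0 the rest of these. Shares of each motif among all genes that fell at 12 h are not given here, so the percentages above are no background for those 9.

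The comparison of 12 h of doxorubicin with no drug, under ad libitum feeding, gave the largest number of calls among the members. Both untreated ad libitum libraries are labelled 0 h, and none was taken at a later hour. The drug therefore cannot be told apart from hours elapsed or time of day, whose part was not tested. The same holds for every other comparison of ad libitum doxorubicin libraries with untreated ones. Of the eIF3 genes 7 of 14 fell, to between 0.471 (Eif3i) and 0.608 (Eif3b) of the untreated ad libitum level, and Eef1a1 and 3 genes of the eEF1B exchange complex fell to between 0.475 and 0.542 of it. A cap-binding gene, Eif4e3, and the eIF4E transporter gene Eif4enif1 were higher. Differences are on the log2(normalised read count + 1) scale from limma, fitted over all 23 libraries with state and genotype as terms, and a member was called at a Benjamini-Hochberg adjusted p below 0.05 over all 11939 genes. There were 14 members that fell and 2 that rose, against 4.21% of all genes tested that fell and 4.78% that rose. The members' median change was -0.48 and that of all genes was -0.01, and 47 of 57 members lay below 0 against 49.4% of all genes above it.

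Of the 6 elongation factor genes 4 fell and all lay below 0, with a median change of -0.92 (Eef1e1, named for eEF1 but a partner of transfer RNA synthetases, had -1.26 and was not called). Eef1a1 (chromosome 9, 78478449 to 78489151, minus strand) had 36130 normalised reads in the wild-type and 40610 in the knockout library without drug, and 19860 and 20420 at 12 h. The groups were apart and the genotypes were close in both. Eef1a1 fell by 0.93 ± 0.21 (SE, n = 2 against 2, limma adjusted p = 0.0122), and near-identical processed copies, which this gene is known for, could share its reads. Eef1g, the scaffold subunit of eEF1B, went from 1124 and 1112 to 592.8 and 474 normalised reads and fell by 1.08 ± 0.24 (limma adjusted p = 0.0126). Eef1d and Eef1b2, the exchange subunits, fell by 0.90 and 0.89 (limma adjusted p = 0.025 and 0.045). Eef2, which drives translocation, had 25960 and 25440 without drug and 22420 and 20970 at 12 h, a change of -0.25 ± 0.26 that was not called (limma adjusted p = 0.609).

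All 14 eIF3 members lay below 0 at 12 h, with a median of -0.65, and 7 fell. eIF3 is the large complex that bridges the small subunit and the messenger RNA. Eif3i (chromosome 4, 129591960 to 129600648, minus strand), from the complex's scaffold module, went from 1120 in the wild type and 1212 in the knockout to 603.4 and 498.3. Eif3i fell by 1.09 ± 0.21 (limma adjusted p = 0.00603). Eif3m, of the octameric core, went from 612.7 and 778.9 to 372 and 313.2 and fell by 1.02 ± 0.19 (limma adjusted p = 0.00542). Eif3e (chromosome 15, 43250058 to 43282719, minus strand), its partner in the core, went from 900.2 and 828.6 to 457.5 and 476.8, so both genotypes were well apart from their untreated libraries. Eif3e fell by 0.89 ± 0.17 (limma adjusted p = 0.00534). Eif3g, Eif3h, Eif3l and Eif3b fell by 0.90, 0.78, 0.74 and 0.72 with limma adjusted p from 0.00773 to 0.0439. The largest subunit gene, Eif3a, changed least, by -0.10 ± 0.18 (limma adjusted p = 0.776), and Eif3f by -0.56 ± 0.18 (limma adjusted p = 0.0571).

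The 9 genes with Eif2 symbols are 7 subunits of eIF2 and eIF2B plus Eif2a and Eif2d, which encode separate factors. All lay below 0, but only Eif2b4, a regulatory eIF2B subunit, fell, by 0.73 ± 0.21 (limma adjusted p = 0.0435). It had 729.7 and 706.7 normalised reads without drug and 470.6 and 398.2 at 12 h. The changes of Eif2s2, Eif2s1 and Eif2b5 were -0.53, -0.37 and -0.29 and were not called. The group named for scanning and start codon choice was made by symbol, from 7 genes with Eif1 or Eif5 symbols other than Eif5a and Eif5a2. It therefore includes Eif1ad and Eif5b, whatever their role. Of this group Eif1ax alone was called. Its level went from 668.2 and 676.2 to 446.9 and 287.9 and fell by 0.90 ± 0.22 (limma adjusted p = 0.0187). Reads of Eif1ax and its autosomal copy Eif1a may be shared, and the rule used to count shared reads is not given in the sources used here. Eif1 had a change of 0.30 ± 0.21 (limma adjusted p = 0.416), and Eif5a one of -0.54 ± 0.19 (limma adjusted p = 0.0794).

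The eIF4 genes did not move as a group: 6 of 13 lay above 0 and the median was -0.11. Eif4e3, a cap-binding relative of eIF4E, had 114 normalised reads in the wild type and 128.7 in the knockout without drug, and 293.1 and 328.1 at 12 h. Eif4e3 rose by 1.35 ± 0.35 (limma adjusted p = 0.0243), and the annotated gene Gm20696 overlaps 14.8% of its exonic bases. Eif4enif1, which shuttles eIF4E into the nucleus and into P-bodies, went from 523.5 and 414.3 to 790 and 631 and rose by 0.60 ± 0.18 (limma adjusted p = 0.0434). The helicase genes parted: Eif4a2 went from 5046 and 5595 to 3320 and 3258 and fell by 0.69 ± 0.21 (limma adjusted p = 0.0449), while Eif4a1 changed by 0.04 ± 0.20 (limma adjusted p = 0.931). Whether the changes of the pair differ was not tested. Eif4e, Eif4g1, Eif4g2 and Eif4b had changes of -0.14, 0.17, 0.05 and -0.45 and were not called.

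**Figure D2:**
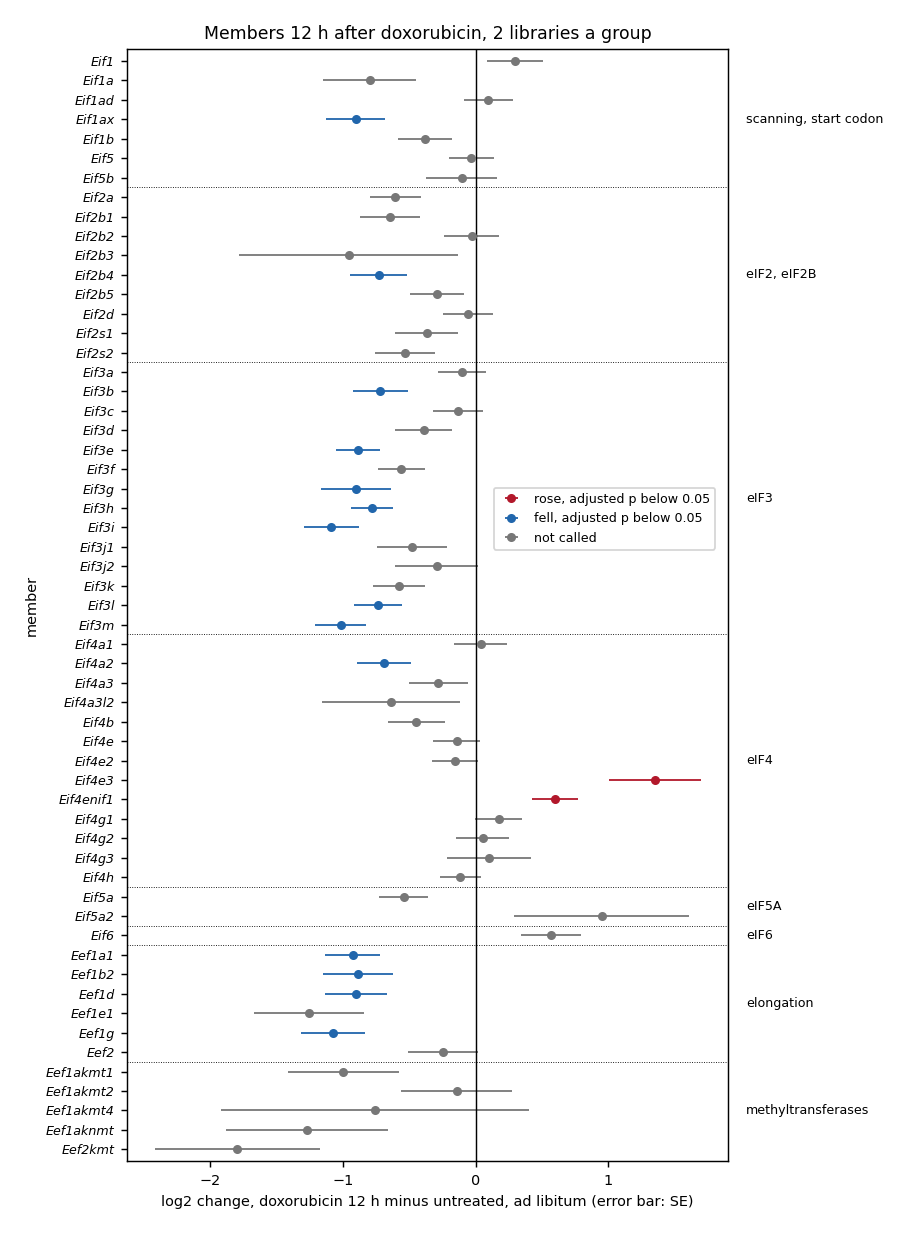
Log2 change from untreated to 12 h of doxorubicin with ad libitum feeding (x axis, points, with SE as bars) for each of 57 members (y axis, grouped by role), 2 libraries a group. Called members are coloured; all 14 eIF3 genes and all 6 elongation factor genes lie left of 0, and Eif4e3 lies farthest right at 1.35.

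These calls rest on few libraries. With any of the 4 libraries of the comparison left out, the number of members called went from 16 to 4 (untreated wild type), 1 (untreated knockout), 8 (treated wild type) and 1 (treated knockout). Eif3e was the 1 member still called in each of the last-named knockout cases. Dropping either untreated library refed for 2 h left 10 members, and so did dropping either 24 h ad libitum doxorubicin library. Dropping the 3 Y-poor knockout libraries left 0, with 102 genes called in place of 1074; the untreated ad libitum knockout library is among them. None of the 16 changed sign in any of those fits, and the change of Eif3e stayed between -0.96 and -0.81.

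Cell type markers moved in the same comparison. Summed stem cell markers were 598.3 to 702 at 12 h against 2952 to 4077 without drug, Paneth cell markers 4408 to 8040 against 21940 to 27730, and proliferation markers 1483 to 1668 against 2724 to 3170. Smooth muscle markers summed to 175.8 to 443 against 684.1 to 2654, and enterocyte markers to 1477000 to 1788000 against 914100 to 1083000. Of these lists 3 of 6 stem, 2 of 7 Paneth, 3 of 8 proliferation and 4 of 5 smooth muscle genes fell, and no gene of these lists was at 0 in the 4 libraries. Fat markers summed to 5723 to 6070 against 2485 to 2909. Of the 8 fat genes 1 (wild type) and 4 (knockout) were at 0 at 12 h, and 2 and 3 without drug. The fat sum thus rests on part of its list and need not follow fat tissue. The part of all these markers in the lower eIF3 and elongation factor levels was not tested. In whole tissue, fewer cells of a type and less RNA per cell cannot be told apart.

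At 6 h of doxorubicin with ad libitum feeding no member passed the test in limma, against 1.34% of all genes tested. There were 11 members with an unadjusted p below 0.05 (19.3%, against 14.8% of all genes), edgeR called 0 and DESeq2 called 2, Eif3m and Eif4e3. The smallest p belonged to Eif3m, at 415.4 and 468.9 normalised reads, a change of -0.65 ± 0.19, and to Eif1ax, at 391.8 and 422.5, a change of -0.72 ± 0.22 (limma adjusted p = 0.111 and 0.119). Both sat between their untreated and 12 h means. Eif4e3 was at 238 and 296.3, and limma called it here when either library refed for 6 h without drug was left out. The members' median change was -0.20 against -0.00 for all genes, and all 6 elongation factor genes and 13 of 14 eIF3 genes lay below 0. Stem cell markers summed to 702.5 to 1043 against 2952 to 4077 (2 of 6 genes fell), Paneth cell markers to 8626 to 12090 against 21940 to 27730, and proliferation markers to 1575 to 1945 against 2724 to 3170 (1 of 8 fell), and their part was not tested.

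At 24 h 1 member fell and 2 rose, against 1.37% and 1.73% of all genes. Eif4e3 was at 326.8 and 330.7, and Eif4enif1 at 792.2 and 717.8. They rose by 1.43 ± 0.35 and 0.69 ± 0.18 (limma adjusted p = 0.0339 and 0.0417). Eif2b4 was at 366.9 and 449.1 and fell by 0.82 ± 0.21 (limma adjusted p = 0.0472). The eIF3 median was -0.31 and none of the 14 was called, while Eef1a1 stood at 29770 and 31880 and Eif3e at 892.8 and 739.7, above their 12 h levels. The count of 3 became 0 without the untreated ad libitum library of either genotype, without the 24 h library of either genotype or with the 3 Y-poor libraries dropped. It became 1 without either library refed for 2 h and without any ad libitum library at 6 or 12 h. Stem cell markers summed to 638.1 to 1065 at 24 h against 2952 to 4077 without drug (2 of 6 genes fell). Smooth muscle markers summed to 217.2 to 674.2 against 684.1 to 2654 (2 of 5 fell). Paneth cell markers summed to 7401 to 13960 against 21940 to 27730 and proliferation markers to 1431 to 1886 against 2724 to 3170, with 0 genes called. The part of all these markers was not tested.

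Between 6 and 24 h of ad libitum doxorubicin no member was called in limma, edgeR or DESeq2, as for 0% of all genes in limma, and 4 had an unadjusted p below 0.05 (7.02%, against 7.12% of all genes). The smallest p were those of Eif3f, with 1799 and 1552 at 6 h and 2097 and 2384 at 24 h, a change of 0.42 ± 0.18, and of Eif3a, with a change of 0.43 ± 0.18 (limma adjusted p = 0.667 and 0.67). The single ad libitum library at 2 h, from a wild-type mouse, had 20770 normalised reads of Eef1a1 and 646.8 of Eef1g, near the levels at 12 h, and it has no partner for a test.

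**Figure D3:**
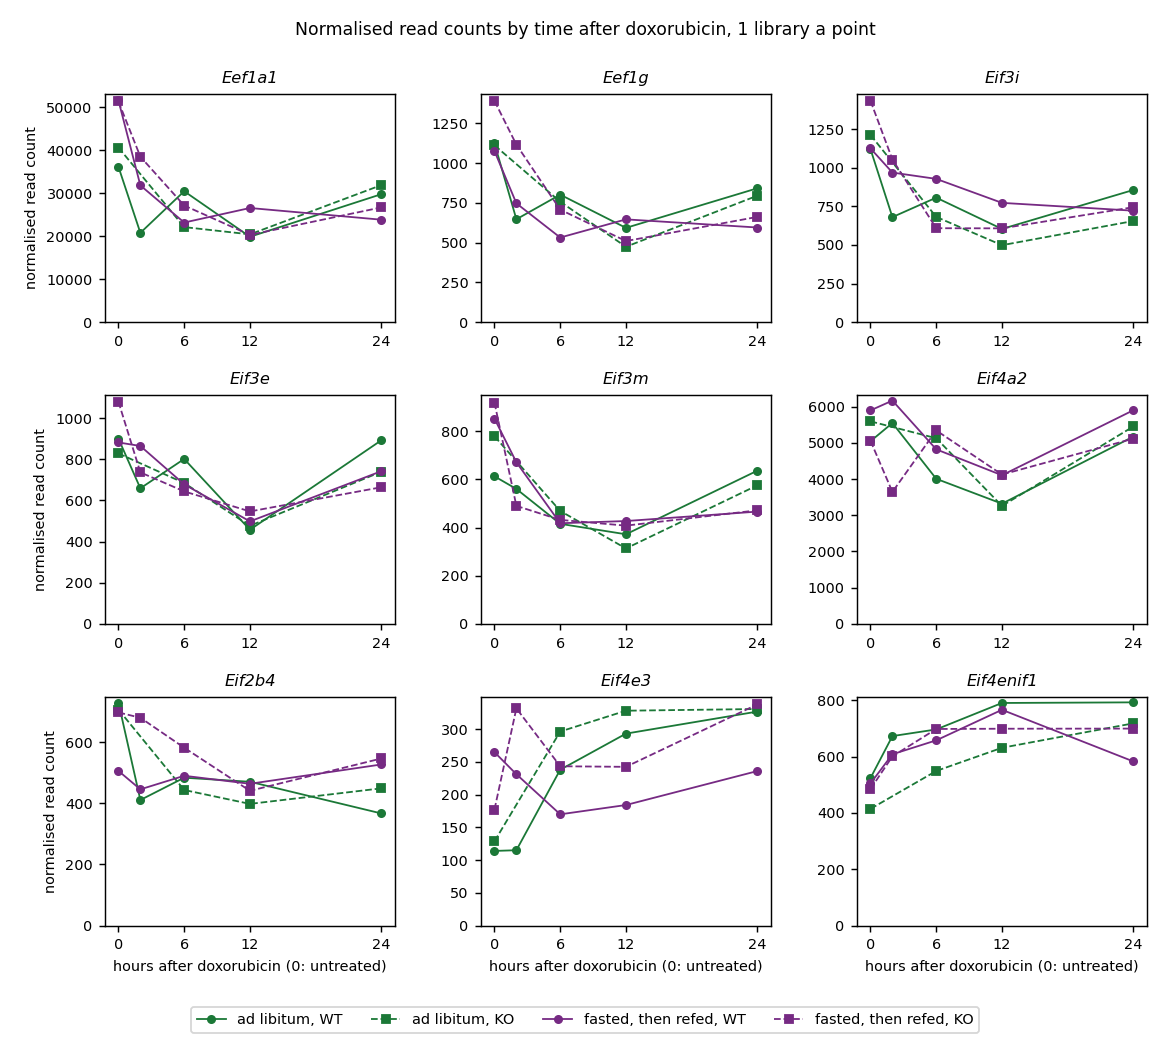
Normalised read counts (y axis, from 0) by hours after doxorubicin (x axis) for 9 members, 1 library a point, WT wild type and KO Ddit4 knockout. At 0 h the ad libitum lines start from the untreated ad libitum library and the prefasted lines from the fasted one; Eif3e falls to 457.5 and 476.8 at 12 h with ad libitum feeding, and Eif4e3 reaches 326.8 and 330.7 at 24 h.

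After a prefast, no member passed the test for doxorubicin at either time with an untreated partner. At 2 h the comparison was with untreated mice refed for 2 h; 0.0335% of all genes were called in limma, 12 members had an unadjusted p below 0.05 (21.1%, against 11.4% of all genes), edgeR called 0 and DESeq2 called 2. All 14 eIF3 genes and all 6 elongation factor genes lay below 0, with medians of -0.44 and -0.47, and the median over all members was -0.31 against -0.02 for all genes. Eif2b1, a regulatory eIF2B subunit gene, was at 224.1 and 220.1 with drug and 407.8 and 412.5 without, a change of -0.88 ± 0.23 (limma adjusted p = 0.157). Eif2s1, the eIF2 subunit gene whose product is phosphorylated under stress, was at 386.3 and 352.8 against 608.5 and 773.1, a change of -0.89 ± 0.24 (limma adjusted p = 0.166). The groups did not overlap for either gene. Stem cell markers summed to 2013 to 2578 with drug against 3507 to 7590 without, proliferation markers to 1866 to 2395 against 2848 to 4295, and red blood cell markers to 927.8 to 1637 against 122.3 to 233, and their part was not tested.

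At 6 h after a prefast 0% of all genes were called, 6 members had an unadjusted p below 0.05 (10.5%, against 12.1% of all genes), and edgeR and DESeq2 called 0 members. Eif3l, of the eIF3 core, was at 763.2 and 1019 with drug and 1190 and 1536 without, a change of -0.62 ± 0.18, and Eif3m at 417.8 and 431.8 against 658.6 and 561.6, a change of -0.52 ± 0.19 (limma adjusted p = 0.199 and 0.294). The untreated wild-type partner is the library with pancreatic transcripts; without it and the fasted knockout library the call stayed at 0.

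Late against early prefasted doxorubicin libraries (12 and 24 h against 2 and 6 h, n = 4 and 4) gave 0 calls among members in limma and edgeR and 1 in DESeq2, against 0.0921% of all genes in limma, with 8 members at an unadjusted p below 0.05 (14%, against 10.9% of all genes). Eif2d, which encodes a factor that delivers transfer RNA without eIF2, had 280.9 to 358.9 late and 426.2 to 496.2 early, with no overlap, a change of -0.56 ± 0.13 (limma adjusted p = 0.12). It was called once the 4 libraries with conflicting titles were left out. Eef1d had 500 to 677.3 late and 660.2 to 1348 early, which overlap, a change of -0.54 ± 0.17 (limma adjusted p = 0.239). Of 57 members 48 lay below 0, and the median change was -0.16 against 0.02 for all genes. By the labels, late and early differ in hours of refeeding as well as of the drug, which cannot be told apart. Stem cell markers summed to 701.3 to 946.2 late against 930.3 to 2578 early (1 of 6 genes fell). Smooth muscle markers summed to 225.4 to 430.5 against 376.9 to 774.9 (1 of 5 fell). Goblet cell markers were at 195600 to 239900 against 139300 to 185100, red blood cell markers at 72.52 to 401.6 against 632.1 to 1637, and their part was not tested.

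No member passed the test for the fast before doxorubicin. Over 7 pairs of prefasted and ad libitum libraries matched on genotype and time, limma, edgeR and DESeq2 called 0 members, limma called 0% of all genes, and 2 members had an unadjusted p below 0.05 (3.51%, against 6.42% of all genes). The median change was -0.02, against -0.01 for all genes. Eif1a, the scanning factor gene, had the smallest p, with 644.3 to 1531 prefasted and 444.3 to 743.2 ad libitum, higher in 5 of 7 pairs, a change of 0.48 ± 0.16 (limma adjusted p = 0.754). Its highest value was in the wild-type prefasted library at 6 h. Eif4e, the main cap-binding gene, had 615.8 to 1022 against 646.4 to 777.8 and was higher in 6 of 7 pairs, a change of 0.26 ± 0.11 (limma adjusted p = 0.754). At 12 h, where the ad libitum members were lowest, Eif3i was at 772.4 and 607.4 prefasted against 603.4 and 498.3, and Eef1a1 at 26550 and 20300 against 19860 and 20420. Taken at 6, 12 and 24 h alone, a choice added after seeing the data, limma called 0 members each time, with median changes of -0.05, 0.06 and -0.14 and 3, 0 and 2 members at an unadjusted p below 0.05.

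Feeding without drug gave a different order of levels. Fasting for 24 h against ad libitum feeding called 0 members in limma, edgeR and DESeq2, against 0.343% of all genes in limma, with 3 at an unadjusted p below 0.05 (5.26%, against 7.06% of all genes). Even so 43 of 57 members lay above 0 (49.7% of all genes did), with a median of 0.13. Eif3f, an eIF3 core gene, was at 2576 and 2831 fasted against 2010 and 1831 fed, a change of 0.49 ± 0.18, and Eif4e3 at 264.8 and 177.2 against 114 and 128.7, a change of 0.83 ± 0.35 (limma adjusted p = 0.455 and 0.6). Both pairs of libraries were apart. Eef1a1 was at 51570 and 51320 fasted against 36130 and 40610 fed, and Eef2 at 33270 and 32780 against 25960 and 25440. Paneth cell markers summed to 9792 to 17080 fasted against 21940 to 27730 fed. Pancreatic acinar markers summed to 267.1 to 79240 against 307.1 to 1958, and the part of these markers was not tested.

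Refeeding for 2 h against fasting also called 0 members in limma and edgeR and 1 in DESeq2, against 0.251% of all genes in limma, with 3 at an unadjusted p below 0.05 (5.26%, against 8.67% of all genes). Eif3a, the largest eIF3 subunit gene, was at 1775 and 1833 after 2 h of refeeding against 1059 and 1093 in the fast, with no overlap, a change of 0.75 ± 0.18 (limma adjusted p = 0.121). Eif5, whose protein triggers GTP hydrolysis on eIF2 at the start codon, was at 2021 and 2038 against 3309 and 2578, a change of -0.53 ± 0.17 (limma adjusted p = 0.3). Of the members 43 of 57 lay above 0, with a median of 0.13 against 0.03. Paneth cell markers summed to 23490 to 55180 against 9792 to 17080 in the fast, and stem cell markers to 3507 to 7590 against 2538 to 3877. Proliferation markers summed to 2848 to 4295 against 1749 to 3334, and pancreatic acinar markers to 196 to 267 against 267.1 to 79240. No gene of these lists was called, and their part was not tested. No fasted library was taken at a later hour, so refeeding cannot be told apart from hours elapsed or time of day.

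From 2 to 6 h of refeeding 8 members fell and 1 rose, against 5.4% and 3.6% of all genes. The members' median change was -0.38 against -0.05 for all genes, and all 14 eIF3 genes and all 6 elongation factor genes lay below 0. No untreated library without refeeding was taken at these hours. Hours of refeeding therefore cannot be told apart from hours elapsed or time of day, whose part was not tested. The same holds for every comparison of refed with fasted libraries without drug. The changes are taken over both genotypes, which did not always share a direction. Eef2 went from 35770 to 19520 in the wild type but from 32650 to 35520 in the knockout. Eif3c went from 2162 to 1491 and from 2535 to 2598. In the wild type Eef1e1 went up from 225.6 to 347.7 and Eif3j1 from 413.3 to 458, and both went down in the knockout. Eif5 (chromosome 12, 111538016 to 111546752, plus strand) went from 2021 in the wild type and 2038 in the knockout to 4101 and 3704 and rose by 0.94 ± 0.17 (limma adjusted p = 0.00597). The 4 libraries are close within their times and well apart between them. Eif3a went from 1775 and 1833 to 952.8 and 1045, just below its fasted values, and fell by 0.85 ± 0.18 (limma adjusted p = 0.0126). Eif3b, the scaffold subunit that holds Eif3i and Eif3g, went from 2030 and 2298 to 1011 and 1415 and fell by 0.85 ± 0.21 (limma adjusted p = 0.0228). Eef1b2 went from 5252 and 3977 to 2379 and 2143 and fell by 1.02 ± 0.26 (limma adjusted p = 0.0269).

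Eif1b, the close relative of Eif1, went from 473.5 and 420.5 to 272.5 and 199.1 and fell by 0.94 ± 0.21 (limma adjusted p = 0.0156). Eif3i, Eef1d, Eif3d and Eif3e fell by 0.79, 0.79, 0.71 and 0.57 with limma adjusted p from 0.0298 to 0.0494. The libraries were not made by strand, so reads of Eif3d cannot be told apart from the antisense gene Gm17638 over 43.3% of its exonic bases, nor those of Eif1b from D830035M03Rik over 12.7%. The count of 9 went to 0 without the wild-type library refed for 2 h, to 1 (Eif5) without the knockout one, and to 0 with the 3 Y-poor libraries dropped. Without the 2 libraries that hold pancreatic transcripts 6 members were called, of which only Eif1b and Eif5 are among the 9, so none of the eIF3, Eef1b2 and Eef1d falls kept its call. Of the 9, 3 kept their call without the wild-type library refed for 6 h (Eif1b, Eif3a and Eif5) and 3 without the knockout one (Eif3a, Eif3b and Eif5). Stem cell markers summed to 946.2 to 1067 at 6 h against 3507 to 7590 at 2 h, Paneth cell markers to 3185 to 6575 against 23490 to 55180, and proliferation markers to 1383 to 1456 against 2848 to 4295. Fat markers summed to 2793 to 5216 against 5181 to 6976 and pancreatic acinar markers to 188 to 211800 against 196 to 267. Of these lists 4 of 6 stem, 5 of 7 Paneth, 6 of 8 proliferation and 4 of 7 tested fat genes fell. Of 11 tested pancreatic genes 0 fell. At 6 h 3 (wild type) and 7 (knockout) of the 8 fat genes were at 0, and none was at 2 h, so the fat sums need not follow fat tissue. The part of all these marker differences in the result was not tested.

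**Figure D4:**
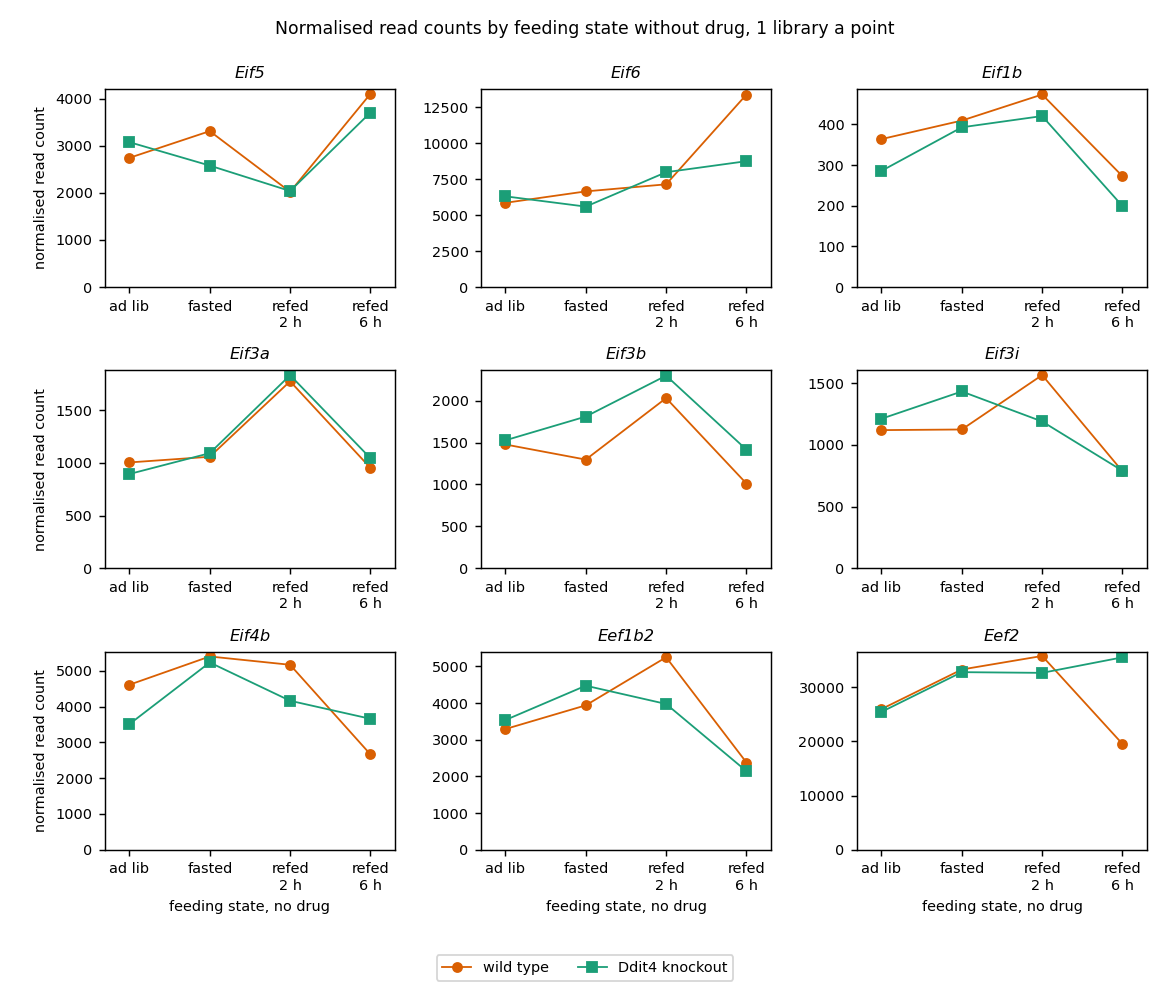
Normalised read counts (y axis, from 0) in 4 feeding states without drug (x axis) for 9 members, 1 library a point, orange circles wild type and green squares Ddit4 knockout. Eif3a peaks at 1775 and 1833 after 2 h of refeeding, where Eif5 is lowest at 2021 and 2038.

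Against the fasted libraries, those refed for 6 h had 3 members that fell and 1 that rose, against 3.46% and 3.56% of all genes. Eif6 (chromosome 2, 155819832 to 155826925, minus strand) went from 6652 and 5594 fasted to 13390 and 8754 and rose by 0.83 ± 0.23 (limma adjusted p = 0.039), with the wild-type value far above the knockout one. Eef1b2, Eif1b and Eif4b, a cofactor of the helicase, fell by 0.90, 0.78 and 0.77 (limma adjusted p = 0.0499, 0.0347 and 0.0436). Eif4b was at 2665 and 3661 against 5405 and 5237 in the fast. Stem cell markers summed to 946.2 to 1067 at 6 h against 2538 to 3877 fasted (2 of 6 genes fell), proliferation markers to 1383 to 1456 against 1749 to 3334 (2 of 8 fell) and Paneth cell markers to 3185 to 6575 against 9792 to 17080 (1 of 7 fell), and their part was not tested. The wild-type library refed for 6 h and the fasted knockout library hold the pancreatic transcripts, and without both 0 members were called; the change of Eif6 ranged from 0.23 to 1.20 over the alternatives. The count of 4 became 0 on dropping the fasted knockout library alone, or the 3 Y-poor libraries. Dropping the fasted wild-type library, either untreated ad libitum library, either untreated library refed for 2 h or any 6 or 12 h ad libitum doxorubicin library left 1. Dropping the wild-type library refed for 6 h, or a 24 h ad libitum doxorubicin library of either genotype, left 2.

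The falls at 12 h of doxorubicin and from 2 to 6 h of refeeding share no library, though both come from the same fit. In each comparison the group with the higher levels includes a Y-poor knockout library. Eef1b2, Eef1d, Eif3b, Eif3e and Eif3i fell in both, which is 35.7% of the 14 members that fell with the drug and 62.5% of the 8 that fell with refeeding. Over all genes, 155 fell in both, or 30.8% of 503 and 24% of 645. Eif5, Eif3a, Eif1b and Eif3d were called with refeeding and not with the drug, where their changes were -0.03, -0.10, -0.38 and -0.39. Eif4e3 rose with the drug and changed by -0.13 with refeeding. Stem cell, Paneth cell and proliferation markers were lower in both comparisons, while the median change of enterocyte markers was 0.55 with the drug and 0.26 with refeeding. The part of these markers in the overlap was not tested.

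**Figure D5:**
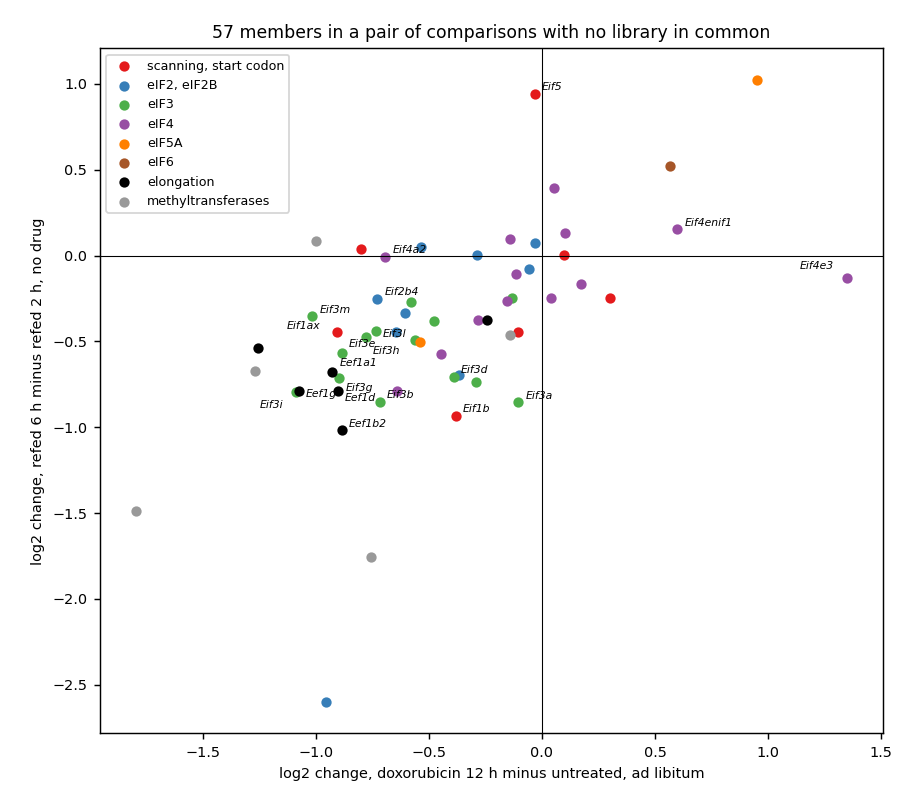
Log2 change at 12 h of doxorubicin with ad libitum feeding (x axis) against log2 change from 2 to 6 h of refeeding without drug (y axis), 1 point a member, coloured by role and named where called in either. Most eIF3 and elongation factor points lie at the lower left, Eif5 lies high near 0 on the x axis, and Eif4e3 and Eif4enif1 lie to the right.

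No member passed the test for genotype. With state as a term, knockout against wild type called 0 members in limma, edgeR and DESeq2, against 0.578% of all genes in limma, with 2 at an unadjusted p below 0.05 (3.51%, against 12% of all genes) and a median change of 0.01. Eif3j1, a loosely held eIF3 subunit gene, had 191.6 to 389.3 normalised reads in knockout libraries and 264.2 to 458 in wild-type ones, was lower in the knockout in 10 of 11 pairs, and changed by -0.32 ± 0.11 (limma adjusted p = 0.249). Eif4e3 had 128.7 to 337.8 against 86.93 to 326.8, was higher in the knockout in 10 of 11 pairs, and changed by 0.38 ± 0.15 (limma adjusted p = 0.297). The ranges of the genotypes overlap for both genes. Every untreated knockout library except the one refed for 6 h is Y-poor, and no wild-type or doxorubicin library is. The genotype effect without drug thus rests mostly on Y-poor libraries. Its difference from the effect with drug cannot be told apart from whatever sets those libraries apart. The difference of the genotype effect between drug and no drug called 0 members in limma, edgeR and DESeq2 and 0% of all genes in limma, with 1 member at an unadjusted p below 0.05 (1.75%, against 4.16% of all genes). The smallest p were those of the methyltransferase gene Eef1akmt2, at 0.83 ± 0.32, and of Eif5b, which joins the ribosomal subunits, at -0.40 ± 0.22 (limma adjusted p = 0.979 for both). The value for Eif5b turned to 0.06 without the 2 libraries holding pancreatic transcripts. Reads of Eif3j1 cannot be told from the antisense gene Spg11 over 19% of its exonic bases, nor those of Eif5b from Rev1 over 16.8%.

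The members of a complex moved together to different degrees. Over the 23 libraries, whose cell type markers vary widely (Paneth markers summed to 2767 to 55180), the median Pearson r of log2 levels between members of 1 group was 0.68 for eIF3 and 0.70 for elongation factors. It was 0.32 for the Eif2 genes, 0.02 for eIF4 and -0.04 for the group named for scanning and start codon choice. Over all pairs of members it was 0.32, and over all pairs of genes tested -0.00. Among the genes most like Eef1a1 were the ribosomal protein genes Rplp0 (r = 0.96) and Rpl7 (0.95), and Eif3h and Eif3l (both 0.94). Those most like Eif4a1 were Ss18l2 (0.80), Nans (0.79), Jmjd6 (0.76), Tmem123 (0.76) and Hnrnph1 (0.74). Those most like Eif4a2 were Nrap (0.77), Zfp760 (0.76), Reps2 (0.74), Suds3 (0.72) and Slc17a4 (0.72), and the helicase pair itself had r = 0.05.

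The levels of the other core initiation factor genes are given here over all 23 libraries. Eif1 lay between 3846 and 7399 with a median of 5496, highest in the wild-type prefasted library at 2 h of doxorubicin and lowest in the untreated ad libitum wild type. Eif4g2, the scaffold used in cap-independent initiation, lay between 8654 and 15720 with a median of 10210, and its 3 highest values were in libraries refed for 6 h, both untreated ones and the wild-type one given doxorubicin. Eif4a1 lay between 683.5 and 1133 with a median of 814.4. Eif5a lay between 2515 and 5858 with a median of 3650, and Eif2s2 between 416.9 and 906 with a median of 601.6. Eif2b5 lay between 401.7 and 796.8 and Eif4g1 between 4512 and 6806.

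Regulators of these factors were given as a list of 27 genes, all tested. At 12 h of doxorubicin 4 rose and 1 fell, against 4.78% and 4.21% of all genes. Eif4ebp3, a binding protein that holds eIF4E off the scaffold, went from 15.86 and 2.258 normalised reads to 130.1 and 80.4 and rose by 3.80 ± 0.70 (limma adjusted p = 0.00475). It also rose with fasting, by 4.91 to 195.6 and 253.1, and at 6 and 24 h of doxorubicin, by 3.22 and 4.65. Trib3 and Eif2ak3, a target and a kinase of the eIF2 stress pathway, rose by 1.21 and 1.17 at 12 h, and Pdcd4, an inhibitor of eIF4A, fell by 1.39, from 816.9 and 1053 to 311.5 and 402. Pdcd4 also fell from fasting to 6 h of refeeding, by 1.56, where 2 of the list fell and none rose, against 3.46% and 3.56% of all genes.

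Partners of the factors were given as a list of 25 genes, with 24 tested. At 12 h of doxorubicin 1 rose and 3 fell, against 4.78% and 4.21% of all genes, with a list median of -0.37. Gtpbp2, a ribosome rescue GTPase, rose by 1.34 ± 0.20 (limma adjusted p = 0.00122). Abce1, which recycles ribosomes, went from 552.2 and 509.1 to 287.9 and 213.1 and fell by 1.10 ± 0.22 (limma adjusted p = 0.00764). Denr, a reinitiation factor, and Pelo, a rescue factor, fell by 0.94 and 1.24. Of the 9 members listed as carrying a 5′ terminal oligopyrimidine tract, 6 fell at 12 h of doxorubicin, 3 from 2 to 6 h of refeeding and 2 from fasting to 6 h of refeeding, against 4.21%, 5.4% and 3.46% of all genes, and none rose in these. The 3 not called at 12 h were Eef2, Eif3f and Eif4b.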

How the data were processed

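RNA from whole proximal small intestine was sequenced as poly-A selected, non-directional libraries, per the labels' protocols. Trim Galore, STAR, DESeq2 and the build mm10 appear in the submitters' processing notes, without versions or roles; the counting rule and annotation are not given in the sources used here. The deposited values are a normalised signal, gene counts divided by a size factor of the library: multiplied back, 100% of them came within 0.01 of whole numbers of reads. Groups followed the genotype, feeding, drug and time labels.

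Genes with a mean of at least 10 were tested on log2(value + 1) with limma 3.58.1 (R 4.3.3, trended empirical Bayes), with terms for state and genotype (10 residual degrees of freedom), for 7 matched pairs, or for genotype by drug. P-values were adjusted over 11939 genes. Alternatives were a pseudocount of 5, no filter, quantile normalisation, count tests on recovered reads (edgeR 4.0.16; DESeq2 1.42.0), and libraries left out. Leaving out 1 library of a pair leaves a lone library, assumed to vary like the others.

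Named members were the 6 largest called rises and falls of a comparison, the 2 smallest p where none was called, a fixed set of core factors, the extremes of mean and SD, and up to 4 called genes of each related list. Eif3l, Eif3h, Eif3b, Eif3g and other called falls outside the 6 largest, Eif4e3 and Eif1ax at 6 h, and the genes with printed promoter stretches were named after their values were seen. The members and lists were chosen with earlier results of these data known. One gene that the rule for likeness names is not reported here.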

Additional observations from a re-analysis of the deposited data

How the results depend on the processing

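No called change reversed under any alternative run: 705 of the values recomputed for called members kept their call and 287 lost it. Counts of called members that moved by over 1.5 times follow, with others beside them; the cause was not tested. From 2 to 6 h of refeeding the 9 became 0 without the 3 libraries lacking Y-linked reads and 0 to 12 with any 1 library left out; it was 6 without the 2 libraries with pancreatic transcripts (2 of them among the 9), 7 with no filter, 7 in edgeR, 12 after quantile normalisation and 13 in DESeq2. For 6 h of refeeding against fasting, the 4 became 1 with no filter, 8 after quantile normalisation (0 rose, 8 fell), 2 in edgeR, 8 in DESeq2, 0 with the Y-poor libraries dropped, 0 without the 2 with pancreatic transcripts, and 0 to 5 with 1 library left out. For 2 h of refeeding DESeq2 gave 1. At 12 h of doxorubicin the 16 became 0 without the libraries lacking Y-linked reads and 1 to 19 with 1 library left out; edgeR gave 12 and DESeq2 19. At 24 h the 3 became 0 without those libraries and 0 to 3 with 1 left out. At 6 h the 0 became 2 in DESeq2, 1 without the libraries with pancreatic transcripts, and 0 to 1 with 1 left out. After a prefast DESeq2 gave 2 at 2 h, and for late against early libraries DESeq2 gave 1 and leaving out the 4 libraries with conflicting titles gave 1. The uncalled genotype by drug value of Eif5b turned from -0.40 to 0.055 without the libraries with pancreatic transcripts. The genotype by drug fit without the libraries lacking Y-linked reads was not run, since it left fewer than 2 untreated pairs.

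By replicate number, no paired analysis was possible because each library is the only one of its state and genotype. Matching by label is part of the fits themselves: 11 states hold both genotypes, and prefasted and ad libitum libraries form 7 pairs of the same genotype and time. With 2 libraries against 2, a miss of the threshold does not show equal levels, and members with a mean near 10 rest on few reads.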
